A study of Mus musculus with 12 samples.

Results

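The 88 genes described here encode the factors that start protein synthesis (initiation factors, Eif1 to Eif6) and lengthen the growing chain (elongation factors, Eef1 and Eef2), with a few enzymes that modify them. They were chosen by name alone, as every row of the table whose symbol begins with Eif1 to Eif6, Eef1 or Eef2, without the endoplasmic reticulum kinase Eif2ak3 and without pseudogenes, and they are 88 of 56748 genes. Their messenger RNA was measured in rods and in whole retina of mice 2 weeks of age. All mice were homozygous for RiboTag, an allele of the ribosomal protein gene Rpl22 that gains an HA tag after Cre acts, and all carried i75Cre, a Cre driven by the rhodopsin promoter, so that ribosomes were tagged in rods. The Het mice (Shp2_Rodhet) had 1 floxed and 1 normal allele of Ptpn11, the gene of the phosphatase Shp2, and the KO mice (Shp2_Rodko) had both alleles floxed. The Het libraries are titled as wild type, but they carry Cre and 1 deletable allele, so the comparison is between loss of 1 and of both alleles. After perfusion with cycloheximide, which holds ribosomes on messenger RNA, tagged ribosomes were pulled down (the rod fraction) and RNA was also taken before the pull-down (the retina fraction, which holds rods and every other retinal cell type). There were 3 libraries for each of Het rod, KO rod, Het retina and KO retina.

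Initiation begins when eIF2 brings the initiator tRNA to the small ribosomal subunit, helped by eIF1, eIF1A, eIF5 and the large complex eIF3. The factor eIF4F joins the mRNA through the cap-binding protein eIF4E, the scaffold eIF4G and the helicase eIF4A, and 4E-binding proteins hold eIF4E back when mTOR signalling is low. eIF2B recharges eIF2 with GTP, and 4 eIF2 kinases can stop that step under stress. eEF1A then delivers each aminoacyl-tRNA and eEF2 moves the ribosome along the mRNA, until its kinase, eEF2K, slows it. Rods renew their outer segments throughout life and so make opsin and other membrane proteins at a high rate.

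The deposited values are whole numbers scaled to about 1 total per fraction, 16263948 to 16265259 in rods and 14525527 to 14527992 in retina, and are printed as they stand. The pattern of low values allowed an estimate of the reads behind 11 of the 12 libraries, 9980000 to 27590000. Ptpn11 was listed at 2511, 2439 and 2431 in Het rods and at 1735, 2139 and 1971 in KO rods (log2 fold change -0.25, limma adjusted p = 0.0625). This sum also counts reads from exons that Cre leaves in place, so it does not check the deletion. The 8 rod markers made up 14.4% to 16.8% of rod libraries and 4.64% to 5.87% of retina libraries. The 5 Müller glia markers summed to 0.00686% to 0.0106% in rods against 0.219% to 0.326% in retina. The 4 amacrine markers summed to 0.00306% to 0.00467% against 0.0641% to 0.0769%. The sums of other cell types fell less. The 5 cone markers were at 0.0239% to 0.0394% in rods against 0.0792% to 0.0954% in retina. The 4 bipolar cell markers were at 0.0208% to 0.0324% against 0.0793% to 0.0861%. Of the libraries, Het retina replicate 1 held 0.000564% of the 3 lens crystallins Cryaa, Cryba1 and Crygs and the other retina libraries held 0.35% to 3.61%. Of all 12 libraries, KO rod replicate 2 and KO retina replicate 2 were the only ones with the Y-linked Ddx3y, Uty and Kdm5d at 0, and with Xist, the RNA of the inactive X, above 0 (39 and 1209).

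Several factors come as pairs of paralogues whose coding sequences are close enough to be aligned base by base, and the strongest contrast between rods and retina lay within such a pair. The first 60 coding bases of Eef1a1 and Eef1a2, both forms of eEF1A, are shown with the 11 bases that differ in capitals, to show how the reads of each can be told apart.
Eef1a1: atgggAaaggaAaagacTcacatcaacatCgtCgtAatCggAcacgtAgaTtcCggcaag
Eef1a2: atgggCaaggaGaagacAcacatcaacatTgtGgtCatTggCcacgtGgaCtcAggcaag
Over the whole reading frame the 2 genes share 80.1% of bases, with no identical run longer than 23 bases. The X-linked and Y-linked forms of the third eIF2 subunit, Eif2s3x and Eif2s3y, share 86.3%, and 13 of their first 60 coding bases differ.
Eif2s3x: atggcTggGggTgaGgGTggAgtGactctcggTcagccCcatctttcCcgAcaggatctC
Eif2s3y: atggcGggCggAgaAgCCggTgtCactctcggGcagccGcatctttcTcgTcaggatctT
By contrast, Eif3j1 and Eif3j2 are identical at all 783 aligned bases, and Eif4a1 differs from the pseudogene Eif4a-ps4 by 1 of 1218 bases. The values of those 2 pairs depend on how the authors assigned reads that match both, which is not stated. Eif4a-ps4 was listed at 832 to 1254 in rods and 516 to 711 in retina beside 4521 to 6494 and 2833 to 3993 for Eif4a1. The sequences are from the GENCODE M21 transcripts of GRCm38, since the table itself holds no sequence.

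Many mRNAs of elongation factors and of some initiation factors begin with a 5′ terminal oligopyrimidine (TOP) tract, a cytosine followed by pyrimidines, through which mTOR controls their translation. Of 86 members with a protein-coding transcript, 10 (11.6%) had at least 1 such transcript that starts with C and 4 or more further pyrimidines, against 5.13% of 21821 genes. Genes with more annotated transcripts have more ways to match, and the number of transcripts was not matched. In Eef1d 1 of 15 transcripts had such a start. From the textbook TOP list only Eef1b2, Eef1d and Eif3f were among the 10. The first 30 bases of a matching transcript of Eef1d and of Eif3f are shown with the opening run in capitals.
Eef1d: CTCTCCTTTgcagtcctgagctcgcagttc
Eif3f: CTCTTTCTCggcaagatggcttctccggcc
The members with such a start outside that list were Eef1aknmt, Eif2b4, Eif2s1, Eif2s3x, Eif3m, Eif4a2 and Eif4g2. Annotated starts can lie some bases from the true cap site, so a missing match says only that these letters do not open an annotated transcript.

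Expression of the members was broad but uneven. Of the 88, 64 had a value above 10 in at least 1 library, 9 never rose above 10 and 15 were at 0 throughout. The 17 numbered Eif1ad copies (Eif1ad2 to Eif1ad19) reached a highest value of 1, and 14 of them were at 0 in all libraries. Eif2c5, the only member without a class, was at 0 in every library, and Eif4a3l1, Eif4a3l2, Eif4e1b, Eif4ebp3, Eef1akmt3 and Eef1akmt4 stayed between 0 and 10.

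Together the members took 1.11% to 1.22% of every library's total, with 1.15% to 1.21% in Het rods, 1.11% to 1.14% in KO rods, 1.12% to 1.18% in Het retina and 1.14% to 1.22% in KO retina. Per length (TPM, the deposited value over the length of the gene's longest coding transcript, relative to the sum over all genes), Eef1a1 was the highest member in all 4 groups, at 3496 ± 372 (SD, n = 3) in Het rods, 3174 ± 357 in KO rods, 3614 ± 90.2 in Het retina and 3749 ± 104 in KO retina. Its Het and KO levels lay within 1 SD of each other in rods, and so did those of rods and retina in Het mice. Second in every group came Eif1, which keeps the start codon search accurate, at 1285 ± 62.2 in Het rods and 884 ± 54.0 in Het retina. This order rests on the length used for each gene. Before division by length, the mean over the 12 libraries was higher for Eif4g2 (31888) and Eef2 (13596) than for Eif1 (8300).

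The third place changed between groups. It was held in Het rods by Eif4g2, the cap-independent relative of eIF4G also known as DAP5, at 955 ± 68.9, and in the other 3 groups by Eef2, at 1047 ± 116 in KO rods, 623 ± 335 in Het retina and 665 ± 273 in KO retina. In retina, Eef2 and the fourth-placed Eif4g2 (502 ± 71.5 in Het) did not differ beyond the spread of Eef2. Eef1a2 stood at rank 17 of the members in Het retina and rank 61 in Het rods.

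The first question was which factors the rod fraction carries more or less of than whole retina. Het rods were compared with Het retina by limma on TMM-scaled log2 values (TMM sets the bulk of genes equal between libraries), and a gene was called at a Benjamini-Hochberg adjusted p under 0.05 with a change of more than 0.5 on the log2 scale. Of 63 members tested, 31 were called higher in rods and 5 lower, where 21.4% of 16110 genes were called higher and 36.8% lower. The median log2 fold change of the members was 0.48, against -0.11 over all genes tested. In KO mice 30 of 64 members were called higher in rods and 7 lower, with 25.7% and 36.5% of 16121 genes called, and the medians were 0.48 and -0.02. The 2 comparisons share no library: 24 members were called higher in both, 5 lower in both and 0 in opposite directions.

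These counts rest on the scaling. TMM raised rod libraries over retina libraries by 1.33-fold in Het mice (0.41 on the log2 scale) and 1.45-fold in KO mice (0.53), relative to the deposited totals. On the deposited totals alone, 8 members were called higher and 10 lower in Het rods, and 7 higher and 13 lower in KO rods, with median log2 fold changes of 0.07 and -0.05. Removing the dependence on GC content, which recentres the genes too, gave 45 higher and 4 lower in Het mice and 48 higher and 4 lower in KO mice. Leaving out Het retina replicate 1 left 21 called in Het mice and leaving out KO retina replicate 1 left 24 in KO mice. The rises below are therefore relative to most other genes rather than to all RNA in the library. In bulk RNA of this kind, fewer cells of a type and less RNA per cell cannot be told apart. The rod fraction also holds ribosome-bound RNA, and the retina fraction RNA taken before the pull-down. A difference in ribosome binding and a difference in mRNA level between the fractions cannot be told apart either.

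**Figure D1:**
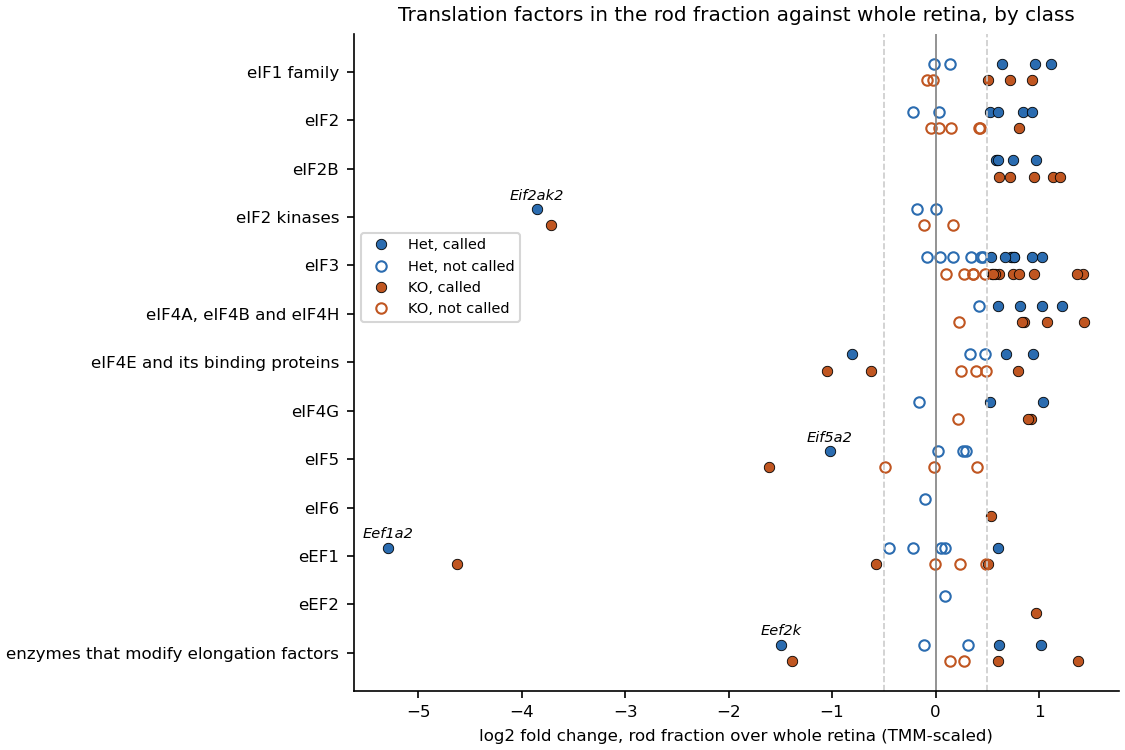
Log2 fold change of each tested factor between the rod fraction and whole retina (x axis), by class (rows), in Het mice (blue, 63 members) and KO mice (orange, 64 members). Filled points passed both thresholds and dashed lines mark the fold threshold of 0.5; most points lie between 0 and 1.5, and Eef1a2 and Eif2ak2 lie below -3.5 in both genotypes.

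In the eIF4A group, all 5 expressed members had positive fold changes and 4 were called higher in each genotype, and the class median was 0.81 in Het mice, 0.86 in KO mice. Eif4a3, the helicase of the exon junction complex rather than of eIF4F, was listed at 1503, 1646 and 1546 in Het rods against 822, 929 and 661 in Het retina. In KO mice it was at 1710, 1866 and 1732 in rods and 884, 777 and 876 in retina. Every rod value lay far above every retina value, and the log2 fold changes were 1.22 ± 0.15 (SE, adjusted p = 0.000107, limma) and 1.43 ± 0.11 (8.26e-06). Eif4a1, the main helicase of eIF4F, rose by 1.03 ± 0.10 (3.37e-05) in Het and 0.86 ± 0.13 in KO rods. Eif4b, which stimulates that helicase, rose by 0.81 and 1.08. Eif4a2, the neuronal-type paralogue, was the member not called, at 0.42 and 0.23. On the deposited totals, 2 of the 5 were called in each genotype and the class medians were 0.40 and 0.32.

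The scaffold class was divided. Eif4g2 was listed at 45807, 41248 and 43446 in Het rods and at 26239, 21011 and 28650 in Het retina, so the groups did not overlap. It rose by 1.04 ± 0.13 (limma adjusted p = 0.000132) in Het and by 0.92 ± 0.14 in KO rods. Eif4g3 was also called higher, by 0.53 and 0.90. Eif4g1, the canonical scaffold of eIF4F, was not called at -0.16 in Het and 0.22 in KO mice. In the cap-binding class, Eif4e rose by 0.68 in Het mice and missed the fold threshold in KO mice at 0.39, Eif4e3 rose in both (0.94 and 0.80) and Eif4e2, a translational repressor, was called in neither (0.33 and 0.25). On the deposited totals, 1 of the 3 scaffolds was called higher and 1 lower in Het rods, and 0 were called in KO rods. There 0 members of the cap-binding class were called higher in either genotype.

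The binding proteins that restrain eIF4E ran the other way. Eif4ebp2, the main form in neurons, was listed at 978 to 1008 in Het rods against 1854 to 2245 in Het retina, and its log2 fold change was -0.81 ± 0.11 in Het (adjusted p = 0.000251, limma) and -0.62 ± 0.11 in KO mice, both called. Eif4ebp1 was scarce, at 4 in each Het rod library and at 8, 12 and 8 in KO rods, and between fractions it was tested only in KO mice, where it fell by 1.05 ± 0.35 (adjusted p = 0.0264, limma). That call was lost without KO rod replicate 1, KO rod replicate 3 or KO retina replicate 3, at adjusted p = 0.0682, 0.0723 and 0.0640 (limma), and with the GC trend removed (0.134).

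All 5 subunits of eIF2B were called higher in rods in both genotypes, with class medians of 0.60 and 0.95. In Het mice their log2 fold changes ran from 0.59 (Eif2b2) to 0.97 (Eif2b3), and in KO mice from 0.62 (Eif2b5) to 1.20 ± 0.19 (Eif2b4, adjusted p = 0.000467, limma). On the deposited totals 1 and 2 of the 5 were called, all higher. Within eIF2 itself, the 3 structural subunits Eif2s1, Eif2s2 and Eif2s3x rose in Het rods by 0.84, 0.60 and 0.93. In KO rods Eif2s3x alone of the 3 was called, at 0.80, while Eif2s1 and Eif2s2 were at 0.43 and 0.42. The eIF2 class median in KO mice changed sign on the deposited totals, from 0.29 to -0.25. Eif2a, an alternative carrier of initiator tRNA, rose by 0.53 in Het rods, and Eif2d was not called.

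Of the 14 eIF3 rows, 8 were called higher in Het rods and 9 in KO rods, and 0 were called lower. Over all genes 21.4% and 25.7% were called higher. On the deposited totals 1 and 2 of the 14 were called higher, with class medians of 0.19 and 0.03. Eif3e had the largest fold change in Het mice, from 1832, 2212 and 2915 in retina to 3696, 4001 and 4082 in rods (1.03 ± 0.17, adjusted p = 0.000663, limma). Eif3d, a subunit that can itself bind caps, had the largest in KO mice, 1.43 ± 0.22 (adjusted p = 0.000432) against 0.74 ± 0.26 in Het mice. Eif3g followed at 1.37 and 0.93. Eif3a, the scaffold of the complex, and Eif3b were called in neither genotype, with values between -0.08 and 0.28. Although eIF3 subunits assemble into 1 complex, their mRNA levels per length spread widely: in Het rods they ran from 26.5 TPM for Eif3j1 to 457 for Eif3e, a 17.3-fold range over 13 rows without Eif3j2, with a median of 172. The range was 18.6-fold in KO rods and 16.6-fold in Het retina. Eif3j1 was the low end each time, and its reads can also be listed under the identical Eif3j2, at 30.6 in Het rods. These ranges may therefore be too wide. The next lowest of the 13 in Het rods was Eif3b, at 42.1. The 5 eIF2B subunits spanned 2.39-fold in Het rods and 3.08-fold in Het retina, from Eif2b3 to Eif2b5, and the 3 eIF2 subunits spanned 2.81-fold in Het rods.

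**Figure D2:**
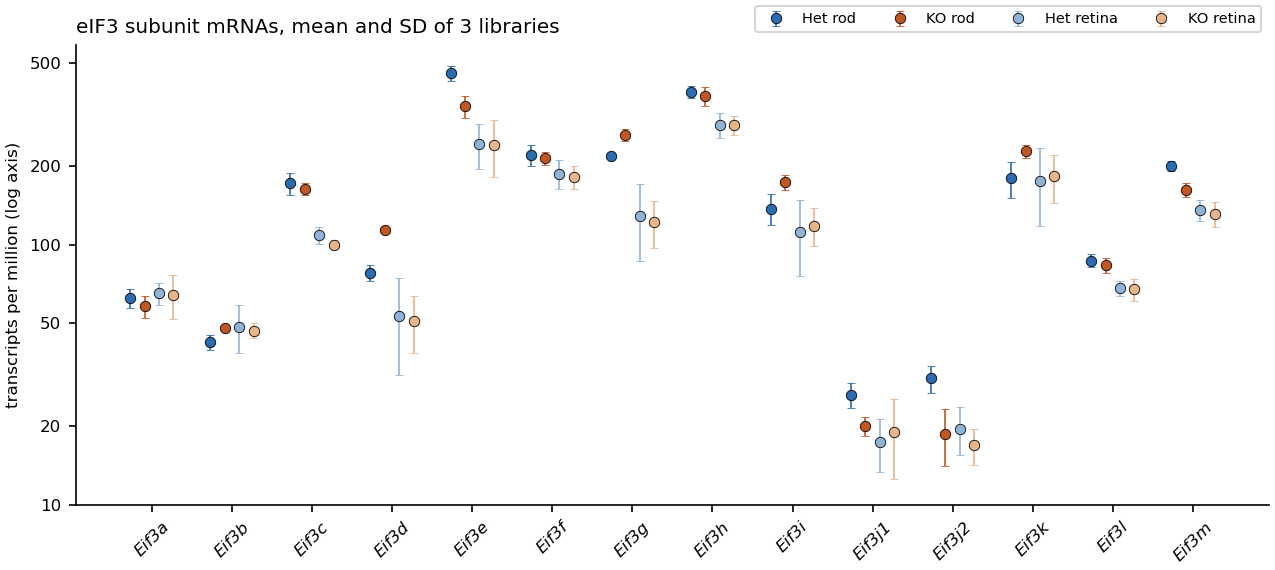
Level per length of the 14 eIF3 rows (y axis, TPM on a log axis) in the 4 groups, as the mean and SD of 3 libraries. Eif3a, Eif3b, Eif3j1 and Eif3j2 lie at 26.5 to 62.3 in Het rods and Eif3e and Eif3h at 457 and 387.

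Among the factors of start codon selection, Eif1, Eif1a and Eif1ad were called higher in rods in both genotypes, from 0.51 to 1.11 (Eif1 in KO mice, at 0.51, was at -0.03 on the deposited totals), and Eif1ax and Eif1b in neither. Eif5, the GTPase activator of eIF2, and Eif5b, which joins the subunits, were not called. Eif5a, which frees ribosomes stalled at proline runs, was not called at 0.29 and 0.40. On the deposited totals, 2 of the 5 tested eIF1 family members were called higher in Het rods and 0 lower. In KO rods 0 of the 5 were then called higher and 2 lower. Of the 4 members of the eIF5 class, Eif5a2 included, 1 was then called lower in Het rods and 3 in KO rods. Eif6, which keeps the large subunit from joining too early, was not called in Het mice (-0.10) and was called higher in KO rods at 0.54 (adjusted p = 0.0462, limma).

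Elongation factors showed no common rise. The main eEF1A gene, Eef1a1, was listed at 30680, 37281 and 39545 in Het rods and at 38106, 40079 and 44602 in Het retina, and these ranges overlapped. Its log2 fold change was 0.05 ± 0.14 (adjusted p = 0.761, limma) in Het and -0.01 ± 0.14 (0.962) in KO mice, and on the deposited totals it was called lower in KO rods. Eef1g, of the exchange complex of eEF1A, was at 0.09 and 0.23. Eef1b2, of the same complex, was at -0.45 in Het mice and fell by 0.58 in KO rods. Eef1d was not called in either. Eef1e1, which belongs to the tRNA synthetase complex, rose by 0.60 and 0.51, the latter changing sign to -0.03 on the deposited totals. Eef2 was not called in Het mice (0.10) and rose by 0.97 (adjusted p = 0.0216) in KO rods, where its 17386, 21636 and 17606 overlapped the 11341, 8093 and 20824 of KO retina.

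Eef1a2, the form that replaces Eef1a1 in mature neurons and muscle, had the largest fold change of all members. It was listed at 25, 42 and 35 in the rods of Het mice, at 86, 49 and 38 in KO rods and, by contrast, at 1622, 2943 and 901 in Het retina and at 1969, 1164 and 2518 in KO retina. The rod values lay more than 10-fold under the lowest retina value. Its log2 fold change was -5.29 ± 0.40 in Het rods (adjusted p = 7.61e-06, limma) and -4.63 ± 0.36 in KO rods (7.48e-06). The 5 Müller glia markers, all called lower in rods, had a median of -4.95 and -4.73 in the same comparisons, and the 4 amacrine cell markers, also all lower, -4.81 and -4.62. The part of RNA from other cells in the Eef1a2 values of rods was not tested.

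The kinases of the class split. Eif2ak2 (PKR, which responds to double-stranded RNA) was listed at 5, 2 and 8 in Het rods and 92, 86 and 155 in Het retina, with no value near the other group. Its log2 fold change was -3.86 ± 0.42 (adjusted p = 5.65e-05, limma), and in KO mice -3.72 ± 0.30. Eef2k, the kinase that switches off eEF2, was at 35, 47 and 20 in Het rods against 112, 128 and 96 in retina, at -1.49 ± 0.32 in Het and -1.39 ± 0.28 in KO mice, both called. Eif2ak1 (HRI) and Eif2ak4 (GCN2, which senses uncharged tRNA) were not called, at 0.00 and -0.17 in Het mice, 0.17 and -0.11 in KO mice, although Eif2ak4 was called lower in both on the deposited totals. Eef2kmt, which methylates eEF2, rose by 1.02 and 1.38, and Eef1akmt2, which methylates eEF1A, rose by 0.62 in Het rods and was not called in KO rods at 0.27.

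The shares of several paralogues did not overlap between fractions, and since each share compares genes within 1 library it does not depend on the scaling. Eef1a2 was 0.0701%, 0.0969% and 0.0761% of the summed level per length of the 2 eEF1A genes in Het rods, and 3.53%, 5.95% and 1.71% in Het retina. In KO mice its share was 0.0907% to 0.220% in rods and 2.37% to 4.28% in retina. Eif5a2, the inducible form of eIF5A, took 2.26% ± 0.54 (SD, n = 3) in Het rods and 5.65% ± 2.13 in Het retina, and 1.28% ± 0.16 and 5.20% ± 1.67 in KO mice. In none of these 4 comparisons did rods and retina overlap.

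In the more balanced pairs the rod shares were also the lower ones. Eif4a2 was 45.1% ± 2.51 (SD, n = 3) of the Eif4a1 and Eif4a2 sum in Het rods and 55.7% ± 2.48 in Het retina. In KO mice the shares were 47.6% and 58.5%. Per length, Eif4a1 led in rods and Eif4a2 in retina. Before division by length, Eif4a2 had the highest mean of its class over the 12 libraries, 7383.6, so the lead in rods rests on the lengths used. Reads of Eif4a1 can also be listed under Eif4a-ps4. Those 2 rows together held 7625 to 7748 in Het rods and 4135 to 4679 in Het retina. Which paralogue leads in retina with both rows counted was not tested. Eif1ax took 30.9% ± 0.49 of the pair with Eif1a in Het rods and 46.9% ± 2.09 in Het retina, and Eif1b took 14.7% ± 1.27 of the pair with Eif1 against 21.4% ± 0.62. Eif4g2 was 90.1% ± 0.63 of the 3 scaffolds in Het rods and 83.1% ± 4.07 in Het retina, with Eif4g1 at 4.48% and 9.65%. In KO mice the Eif4g2 shares were 86.1% and 82.5% and overlapped (exact permutation p = 0.2). Eif4e2 was 31.8% of its group in Het retina and 26.1% in Het rods, without overlap, while Eif4e, at 58.1% and 60.9%, overlapped. Eif4ebp2 made up 94.3% to 98.9% of the binding proteins in all libraries.

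With 3 libraries against 3, the exact two-sided permutation test cannot go below p = 0.1, which each non-overlapping share reached, and over 64 comparisons of shares the smallest adjusted p was 0.246. None of these shares can therefore pass a threshold of 0.05.

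**Figure D3:**
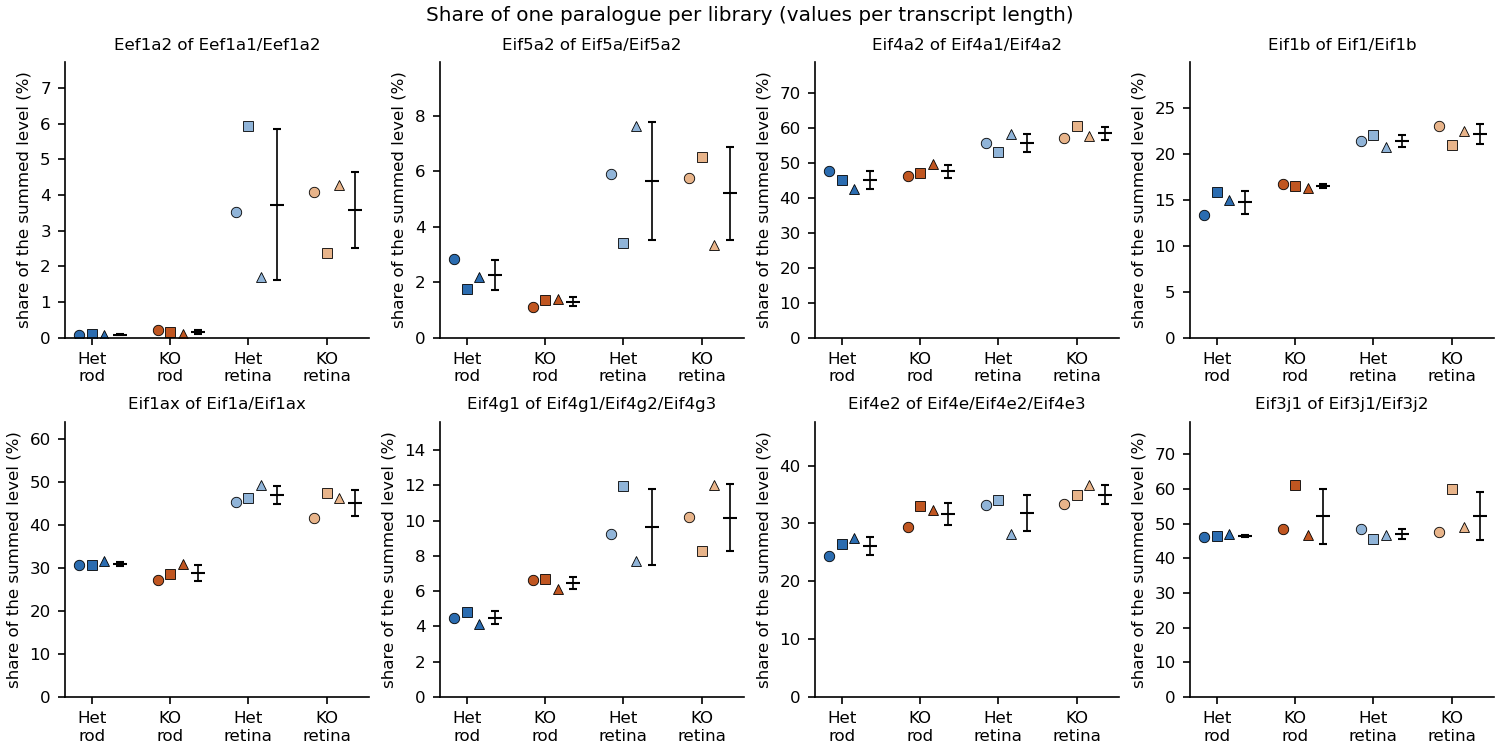
Share of the named paralogue in its group's summed level per length (y axis, percent) in each library (circle, square and triangle for replicates 1, 2 and 3), with the mean and SD of each group of 3 beside the points. Eef1a2, Eif5a2, Eif4a2, Eif1b and Eif1ax are lower in every rod library than in every retina library of the same genotype, and Eif3j1 is at 61.2% and 60.05% in KO rod and KO retina replicate 2.

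A pair of members marked replicate 2 of the KO mice, whose libraries had the RNA pattern of a female (Y-linked genes at 0, Xist above 0). The other 10 libraries, all Het ones included, had the male pattern. Sex was therefore unbalanced between KO and Het libraries. Eif2s3y was at 0 in KO rod replicate 2 and KO retina replicate 2 and at 356 to 725 in the other 10 libraries. In the same 2 libraries Eif2s3x had its highest value of each fraction, 4306 in rods (2673 to 3498 in the other 5) and 3873 in retina (1679 to 2335). The sum of both, 4306 and 3873, lay above the sums of the other rod and retina libraries too, which were 3029 to 4046 and 2123 to 3060. Eif2s3x therefore depended on these libraries: its log2 fold change of KO over Het rods was 0.05 with them and -0.18 without KO rod replicate 2, and it was called in neither. Eif3j1 made up 61.2% and 60.05% of the Eif3j1 and Eif3j2 sum in these 2 libraries and 45.6% to 49.0% in the other 10.

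The second question was how these mRNAs differed between rods that lost both Shp2 alleles and rods that lost 1. The study set rod-depleted genes aside; here these were taken as the 5923 genes called lower in the rod fraction of Het mice. KO rods were compared with Het rods without them, which took out Eef1a2, Eif2ak2, Eif4ebp2, Eif5a2 and Eef2k and left 58 members tested. Of these, 6 were called higher and 2 lower, against 12.7% of 10076 genes called higher and 2.03% lower. The members' median log2 fold change was 0.01 and that of all genes -0.02. This comparison shares its rod libraries with those between fractions. The deposited values of Het and KO rods did not overlap for 14 members higher and 22 lower in KO rods, where 51.6% of all genes tested did not overlap.

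Among the members called, Eef2, the translocase of elongation, had the largest fold change. It was listed at 7570, 11998 and 10612 in Het rods and at 17386, 21636 and 17606 in KO rods, or 10060 ± 2265 and 18876 ± 2393 (SD, n = 3). Every KO value exceeded every Het value, and the log2 fold change was 1.02 ± 0.19 (adjusted p = 0.0122, limma). With no filter on low values the adjusted p was 0.0584. Eef1d, the nucleotide exchange subunit for eEF1A, was at 310, 507 and 414 in Het rods and at 689, 760 and 696 in KO rods. It rose by 0.92 ± 0.16 (adjusted p = 0.00514).

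Among initiation factors, Eif3d went from 800, 920 and 817 in Het rods to 1254, 1297 and 1230 in KO rods, a rise of 0.67 ± 0.088 (adjusted p = 0.00259, limma) with tight replicates in both groups. Eif6 went from 166, 233 and 204 to 268, 309 and 291, a rise of 0.63 ± 0.15. Eif2b4 and Eif2b2, subunits of the regulatory part of eIF2B, rose by 0.57 ± 0.13 and 0.55 ± 0.13, whereas Eif2b1, Eif2b3 and Eif2b5 were not called at 0.09, -0.28 and -0.03. Eif2a went from 806, 784 and 724 to 494, 456 and 517 and fell by 0.56 ± 0.089 on the log2 scale (adjusted p = 0.00358). Eif3j2 went from 460, 381 and 402 to 270, 194 and 314 and fell by 0.60 ± 0.15 (adjusted p = 0.0161).

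A shared estimate of spread over all 12 libraries, the variable retina ones included, gave 0 calls, and several calls turned on 1 library. Without Het rod replicate 1, only Eef2, Eef1d, Eif3d and Eif2a were called, and without KO rod replicate 2 only these and Eif6. Eif3j2 was at -0.43 without KO rod replicate 2. Without Het rod replicate 2, 11 members were called, the same 8 with Eif3i, Eif3k and Eif4e, whose log2 fold changes over all libraries were 0.48, 0.48 and -0.47, just inside the threshold. On the deposited totals 4 members were called higher and 4 lower, Eif4e and Eef1akmt2 among the latter. Of the 5 members removed beforehand, 4 could be tested in the fit without removal, where Eif5a2 fell by 0.64 ± 0.18 (adjusted p = 0.0260) from 264, 189 and 262 to 123, 172 and 136 and Eef1a2 was not called (0.76, adjusted p = 0.0916).

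**Figure D4:**
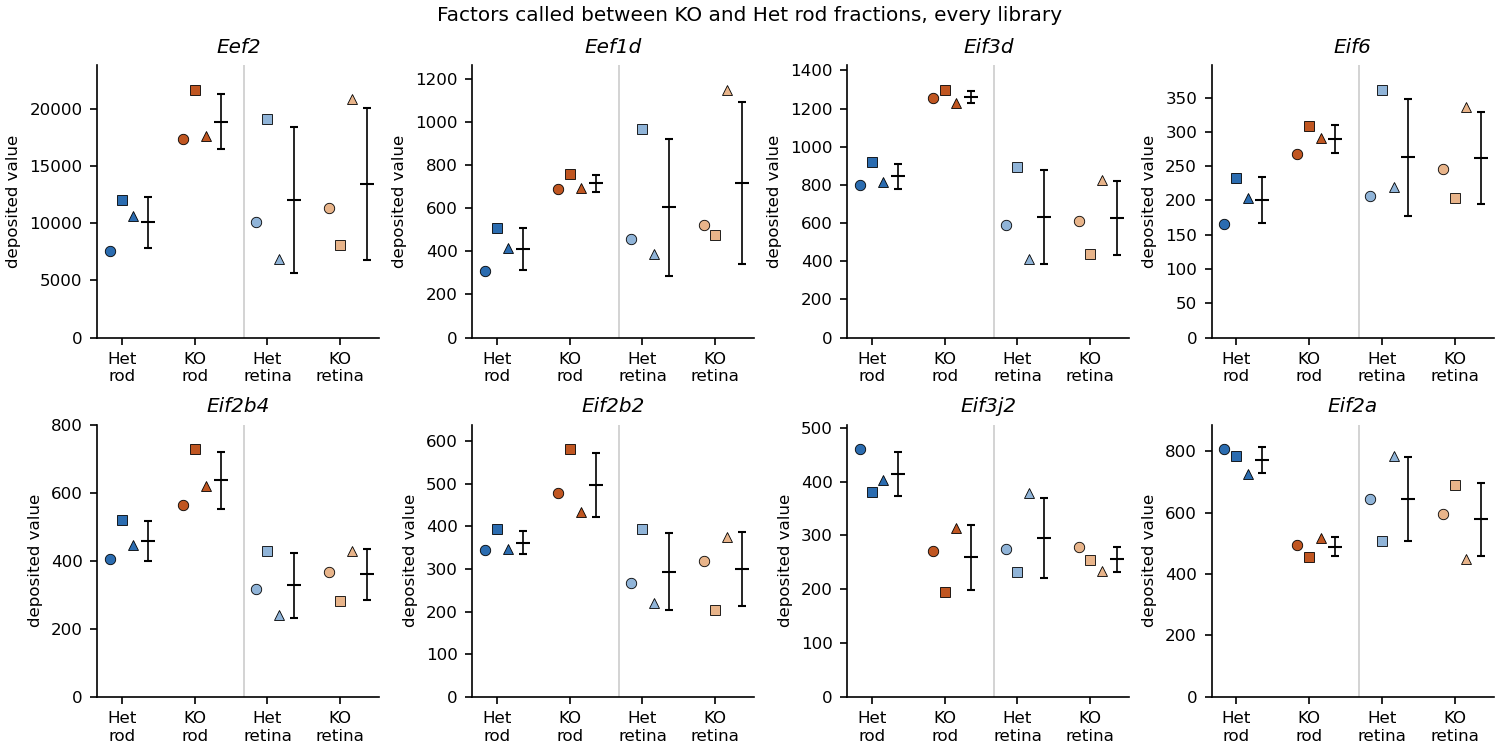
Deposited values (y axis, from 0) of the 8 members called between KO and Het rods in all 12 libraries (circle, square and triangle for replicates 1, 2 and 3), with the mean and SD of each group of 3; values are comparable within a fraction, left or right of the grey line. The KO and Het rod values do not overlap in any of the 8, which were chosen by their calls in these same rod libraries. Of all genes tested, 51.6% do not overlap in rods. The KO and Het retina values overlap in all 8, where 2.93% of all genes tested do not overlap.

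The fold change in KO rods followed the base composition of the transcript. Across 61 members (Eif2s3y left out, rod-depleted members included) the Spearman correlation between GC content and log2 fold change was 0.92, against 0.70 over 12907 genes. These points share the same 6 libraries and are a description of them. The 20 members with the highest GC content (52.3% to 60.6%) had a median log2 fold change of 0.37 and the 21 with the lowest (38.8% to 46.2%) -0.28. All 6 members called higher had a GC content of at least 54.6% and both called lower were at or under 43.6%.

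The trend was seen library by library. In Het rods the median of the high-GC members relative to their mean over the 6 libraries lay under that of the low-GC members by 0.56, 0.18 and 0.29 on the log2 scale, and in KO rods it lay above it by 0.30, 0.44 and 0.21. After the dependence on GC content was taken out of every library over all genes, 0 of 58 members were called and 3.13% of all genes. Eef2 then stood at 0.47 ± 0.088 (adjusted p = 0.00907, limma), Eef1d at 0.45 ± 0.10 (0.0183), Eif3d at 0.34 ± 0.067 (0.00873) and Eif2a at -0.35 ± 0.078 (0.0159), all under the fold threshold. Eif6 and Eif2b4 were at 0.01 and 0.04. An effect of genotype that follows GC content and a library effect that does so cannot be told apart with these samples.

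**Figure D5:**
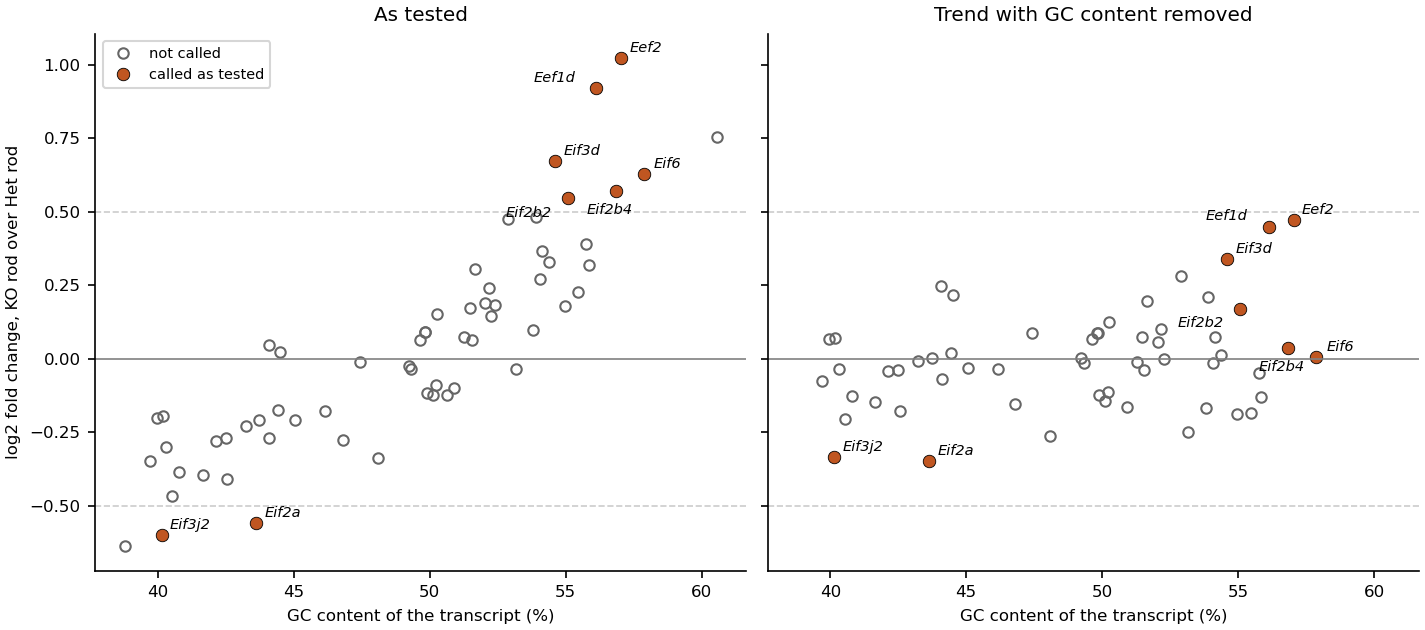
Log2 fold change of KO over Het rods (y axis) against the GC content of the transcript (x axis, percent) for the members, as tested (left, 61 members, the 4 testable rod-depleted ones included) and after the GC trend of each library was removed (right, the members of the comparison without Eif2s3y). Filled points are the 8 called members, and on the right these lie between -0.35 and 0.47; Eif5a2, open at the lower left, was called only in the fit without removal.

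Some paralogue shares also lay apart between KO and Het rods, although no share passed the test. Eif4g2 took 90.1% ± 0.63 (SD, n = 3) of the scaffolds in Het rods and 86.1% ± 0.71 in KO rods, with Eif4g1 at 4.48% and 6.46% and Eif4g3 at 5.41% and 7.48%. Eif4e took 60.9% ± 3.34 and 54.6% ± 2.57 of the cap-binding proteins, with Eif4e2 at 26.1% and 31.6%. These shares did not overlap between genotypes (exact permutation p = 0.1, the smallest possible, adjusted p = 0.246). The same held for Eif5a2 (2.26% in Het and 1.28% in KO rods), Eif1b (14.7% and 16.5%), Eif4ebp1 (1.15% and 2.5%) and Eif4ebp2 (98.8% and 97.5%). The shares of Eef1a2, Eif4a2, Eif1ax, Eif2s3y, Eif4e3 and Eif3j2 overlapped. The GC content is 43.2% in Eif4g2 and 40.5% in Eif4e, and 54.2%, 51.7% and 49.3% in Eif4g1, Eif4g3 and Eif4e2. Eef1a1, by contrast, was at -0.01 (adjusted p = 0.937, limma) in KO rods.

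In whole retina, 0 of 64 members and 0% of 16863 genes were called between KO and Het mice (limma), with 0 members and 140 genes at an unadjusted p below 0.05, and the members' median log2 fold change was 0.00. Eef2 was at 10129, 19117 and 6840 in Het retina and at 11341, 8093 and 20824 in KO retina, so that replicates of 1 genotype differed by more than the genotypes did. Eef1d, Eif3d and Eif6 were likewise highest in Het retina replicate 2 and KO retina replicate 3. The deposited values of 1 member, Eef1akmt1, did not overlap (199, 195 and 206 in KO against 214, 208 and 215 in Het retina), where 2.93% of genes did not overlap. An interaction term over the 12 libraries asked whether the KO effect in rods differed from that in retina. In that test 0 of 64 members and 0% of 17192 genes were called, with 4 members and 603 genes at an unadjusted p below 0.05. For Eef2 the difference between the 2 effects was 0.72 ± 0.53 (adjusted p = 0.802), so the rise in rods is not shown to differ from the 0.18 ± 0.45 of retina.

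The 10 members on the textbook TOP list did not move as 1 group. In Het mice 3 were called higher in rods (Eif3e, Eif3h and Eif4b) and 1 lower (Eef1a2), against 21.4% and 36.8% of all genes, with a median of 0.09. In KO mice 4 were higher and 2 lower, against 25.7% and 36.5% of all genes, with a median of 0.48. Between KO and Het rods 2 of the 9 tested rose, Eef2 and Eef1d, and the others, Eef1a1 among them, ran from -0.30 to 0.19 (Eif3e to Eef1g), with a median of 0.09 over the 9, where 12.7% of all genes were called higher. On so few members these counts cannot be told from the shares of all genes.

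Among 45 other genes of the pathway, 11 were called higher and 4 lower of 43 tested in Het rods against Het retina, with a median of 0.25, where 21.4% of all genes were called higher and 36.8% lower. The release factor gene Gspt1 rose by 1.09 and its paralogue Gspt2 fell by 0.80. Atf4, the transcription factor of the stress response that eIF2 kinases start, rose by 1.04, and Eif2ak3 (PERK) by 0.98. Mknk2, the kinase that phosphorylates eIF4E downstream of ERK, fell by 2.63. In KO mice 15 of 44 were higher and 4 lower, against 25.7% and 36.5% of all genes. Between KO and Het rods, 6 of 40 (15%) were called, all higher, a share near the 12.7% of all genes. They were Rptor of mTORC1 (0.64), Ddit3 and Ppp1r15a of the stress response (0.83 and 0.64), Dph2 of the diphthamide pathway of eEF2 (0.85) and the mitochondrial elongation factors Tufm and Tsfm (0.70 and 0.51). Atf4 was not called at 0.11. With the GC trend removed, 1 of the 40 was called. In retina 0 of the 45 were called between genotypes.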

How the data were processed

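Rod and whole-retina libraries of Het and KO mice (12, 3 per group) were grouped by the genotype and tissue of each sample. Libraries were made with SMART-Seq V4 from 100 ng of RNA. The submitters' processing notes name CASAVA 1.8.2, HISAT2, DESeq2, edgeR and GRCm39 without saying what each was used for. The deposited values are a signal proportional to reads: the authors' table holds whole numbers scaled to 1 total per fraction, a step inferred from the values. Counting by strand is not given in the sources used here. 0 columns belonged to other samples.

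TMM factors (trimmed mean of M values, computed in a script of this work) scaled the values, 2 was added, and log2 values were fitted in limma 3.58.1 (R 4.3.3, trend and robust options) over the groups compared. Genes needed a value of about 10 in at least 3 libraries and a sum of at least 15. GC content, length and sequences came from GENCODE M21 (GRCm38), matched by gene for 88 of 88 members. GC trends were lowess curves (span 0.3). The fit and the estimate of reads were tested on simulated data. Shares of paralogues used an exact permutation test.

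The members, classes and lists were chosen with earlier results of these data known. Members named in full were the highest of each class, those called between KO and Het rods, the 5 largest rises and falls between fractions without overlap, the paralogues, the kinases and those below the filter. Nothing states that libraries came from separate mice, so p-values measure the spread between these libraries. Same-numbered Het rod and retina libraries deviated together (correlations 0.43, 0.38 and 0.24), and KO ones less so (0.30, 0.02 and 0.20). Alternatives were other scalings, pseudocounts and filters, a replicate block, GC removal, 1 fit over all libraries and each library left out.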

Additional observations from a re-analysis of the deposited data

How the results depend on the processing

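The fold changes of the 5 largest rises and 5 largest falls per genotype between fractions kept their sign under all alternatives run. So did those of the 8 members called between KO and Het rods. Each of these members, chosen by its call in these same libraries, was counted once per alternative. Of these pairs of member and alternative, 165 kept the call and 2 lost it in Het rods against retina (10 members). The counts of pairs were 169 and 5 in KO mice (10 members), and 109 and 43 between KO and Het rods (8 members). Other members did change sign on the deposited totals, among them Eif1 and Eef1e1 in KO mice and Eef2 in Het mice. There the median over all members in KO mice went from 0.48 to -0.05. Eif2s3x changed sign between KO and Het rods without KO rod replicate 2. Counts of called members moved as follows. On the deposited totals, 18 members were called in Het and 20 in KO rods against retina, down from 36 and 37. Leaving out each library gave 21 to 34 in Het mice (lowest without Het retina replicate 1), 24 to 35 in KO mice (lowest without KO retina replicate 1) and 4 to 11 between KO and Het rods. Leaving out both KO libraries with Eif2s3y at 0, chosen after seeing the data, left 23 in KO mice. Between KO and Het rods, where 8 were called, 1 fit over all 12 libraries called 0, and removing the GC trend called 0, also with the replicate block and, chosen after seeing the data, without KO rod replicate 2. The replicate block alone gave 36, 36 and 8 and changed no other count by over 1.5 times. Between fractions GC removal, which also recentres the genes, called 49 members in Het and 52 in KO mice. In retina between genotypes, and for the interaction, 0 members were called under every alternative. Depth could not be estimated for Het retina replicate 3, and genes under about 10 per library were not tested.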
